A study of Rattus norvegicus with 32 samples.

Results

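Amino acid transporters are the membrane proteins that carry amino acids, and a few related small molecules, into, out of and between the compartments of a cell. The set described here holds 59 of the 32623 genes in the files. Its members are all genes whose symbol is that of a numbered member of the families Slc1, Slc3, Slc6, Slc7, Slc36, Slc38 or Slc43, except Slc7a11, which was left out of the selection. The rule reads symbols only, but it was chosen with earlier results of these data known. The label of the set goes beyond amino acids for some members, since several Slc6 proteins carry dopamine, serotonin, creatine, taurine or betaine, Slc43a3 carries purine nucleobases, and the Slc3 proteins are chaperoning heavy chains with no transport channel of their own.

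RNA came from liver sinusoidal endothelial cells (LSECs), the fenestrated cells that line the smallest vessels of the liver, in a study of how they change as chronic liver disease progresses. In the carbon tetrachloride (CCl4) model, male Wistar Han rats inhaled the hepatotoxin for 2 weeks (acute injury, n = 5), 6 weeks (fibrosis, n = 5) or 12 to 14 weeks (cirrhosis, n = 6) and were compared with untreated rats (healthy, n = 6). Drinking water in this model was supplemented with phenobarbital, and whether the healthy rats received it is not given in the sources used here. The labels of the cirrhotic libraries state no duration, which was taken from the description of the study. A second experiment with another hepatotoxin, thioacetamide (TAA), has 5 libraries labelled control and 5 labelled TAA control. The labels and the study's text do not settle which of these groups received TAA, and they name different strains (Wistar Han in the labels and Sprague-Dawley in the text), so this pair is reported by its labels only. In both models the cells were taken some days after the last dose. LSECs were separated by density gradient without antibodies, so that cells of other types could remain.

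Amino acid carriers divide the work by mechanism. Sodium-coupled carriers of Slc1, Slc6 and Slc38 concentrate amino acids in the cell, exchangers of Slc7 then trade those stores for essential, cationic or aromatic amino acids, and facilitative Slc43 carriers let large neutral amino acids flow down their gradient. Most Slc7 exchangers reach the membrane only as a dimer with an Slc3 heavy chain, while the cationic carriers Slc7a1 to Slc7a4 work alone. In endothelium, uptake of arginine through the cationic carriers supplies nitric oxide synthase, and cells short of amino acids are known to raise several of these genes through the transcription factor ATF4.

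The libraries held 25646531 to 46464289 counts each. Levels are given as CPM, counts scaled to a common library size with TMM factors, computed over the 22 CCl4 libraries together and, separately, over the 10 libraries of the TAA experiment, so that levels are not compared between these experiments. Genes were tested with limma-voom, and a gene was called when its Benjamini-Hochberg adjusted p-value over all genes tested was under 0.05 and its fold change above 1.5. "Rose" and "fell" are used only for such calls. Fold changes come from these fits, and the error beside a log2 fold change is its standard error (SE). CPM values of 2 genes are not compared, because they depend on transcript length.

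The cells carried LSEC markers in every group, at very different levels. Summed over the 11 LSEC markers found in the files, the level was 15801 to 31028 CPM in healthy libraries, 4053 to 4876 CPM after acute injury, 2838 to 3789 CPM in fibrosis and 16519 to 21146 CPM in cirrhosis. Of these markers, 9 fell after acute injury, 10 in fibrosis and 3 in cirrhosis, where 1 rose. Markers of other cells moved with the same stages. The 12 hepatocyte markers summed to 1393 to 29908 CPM in healthy libraries, 152 to 959 CPM in acute injury, 1424 to 5641 CPM in fibrosis and 3300.0 to 15661 CPM in cirrhosis, and 12, 7 and 2 of them fell. The 12 macrophage markers summed to 589 to 4352, 100.02 to 253, 41 to 247 and 1249 to 3512 CPM in the same order, with Timd4 at 0 in every acute and fibrosis library. The 15 immediate-early genes, which are induced within minutes of stress or cell handling, summed to 50097 to 84169, 1522 to 5262, 4499.7 to 7135 and 26639 to 50182 CPM, and 15, 14 and 7 of them fell. Stellate and fibroblast markers summed to 295 to 787 CPM in healthy libraries, 1315 to 2132 CPM in acute injury, 1301 to 1746 CPM in fibrosis and 622 to 1911 CPM in cirrhosis. In acute injury and fibrosis 1 gene, Reln, made up most of this sum (1305 to 2123 and 1174 to 1570 CPM), whereas 1 of 9, 3 of 10 and 8 of 11 tested markers rose and 6, 4 and 0 fell at the 3 stages. Lymphocyte markers fell in 7 of 8, 6 of 9 and 1 of 11 tested genes. Of the neutrophil markers only 1 was tested in acute injury and fibrosis, where it fell, and 4 of 5 rose in cirrhosis. Cholangiocyte markers summed to 2.36 to 28.3 CPM in healthy libraries, 36.2 to 106 CPM in acute injury, 7.87 to 108 CPM in fibrosis and 9.4 to 36.6 CPM in cirrhosis. Here Spp1, which other cells also express, gave 35.3 to 105 CPM of the acute sum, and 1 of 4, 2 of 4 and 4 of 8 tested markers rose and 2, 2 and 0 fell. In a bulk library, fewer cells of a type and less RNA per cell cannot be told apart. The part of other cells and of cell handling in the results below was not tested. Of the healthy libraries, replicate 5 had the least hepatocyte RNA, and replicate 6 stood apart from the others on the second principal component (-5.7, and 32.6 to 94.0 for the rest).

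Of the 59 members, 38 had enough counts to be tested in at least 1 of 6 comparisons, and 28 were tested in all of them. A member could enter a test through the group in which it was high. After 2 weeks of CCl4, 21 of 33 tested members were called against healthy LSECs, where 73.4% of all 14317 genes tested were called (35.5% higher and 37.9% lower), and 9 rose and 12 fell. In fibrosis 23 of 34 were called, 11 higher and 12 lower, against 70.2% of all genes (35.3% higher and 34.9% lower), and in cirrhosis 16 of 34, 6 higher and 10 lower, against 51.8% (27.1% higher and 24.7% lower). These shares lie near or below those of all genes. The median log2 fold change of the tested members was 0.08, -0.14 and -0.14 at the 3 stages, beside -0.09, -0.03 and 0.07 for all genes. The 3 comparisons share the same 6 healthy libraries. Without healthy replicate 5 the counts were 21, 22 and 18, and without replicate 6 they were 20, 19 and 16.

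Scaling by library size alone, without TMM factors, moved the median of all genes to 0.32, 0.37 and 0.42 and the split of called members to 12 higher and 11 lower, 13 and 10, and 9 and 6. Of all genes called, the share that was higher moved from 48.4% to 58.2%, from 50.3% to 60.9% and from 52.2% to 71.3%. The directions of called members given below are relative to the TMM scale, and no called member changed sign under library size alone. Some members gained a call as higher against healthy LSECs under that scaling. They were Slc7a8, Slc36a1 and Slc38a7 in acute injury, Slc3a2 and Slc38a9 in fibrosis, and Slc1a1, Slc38a2 and Slc38a9 in cirrhosis.

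**Figure D1:**
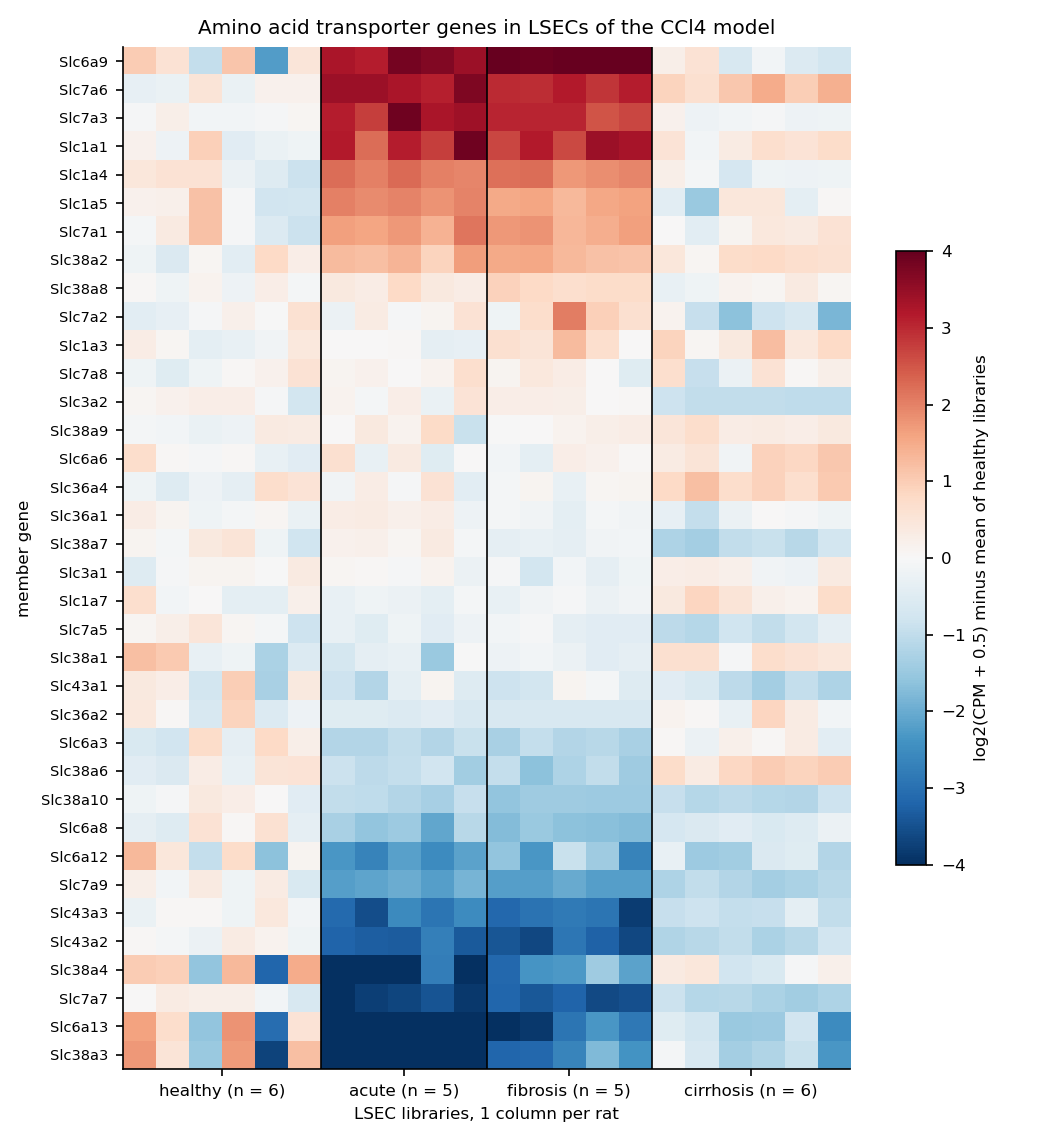
Colour shows log2(CPM + 0.5) minus the mean of the 6 healthy libraries for the 36 members tested in at least 1 comparison with healthy LSECs, with 1 row a gene and 1 column a library. Rows are ordered by their mean in acute and fibrosis libraries, and colours stop at 4 and -4. The acute and fibrosis columns look alike, red at the top from Slc6a9 to Slc38a8 and dark blue at the bottom from Slc7a9 to Slc38a3, while the cirrhosis columns are paler.

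Of the cationic amino acid carriers, 2 of 3 tested rose after acute injury and all 3 in fibrosis, while in cirrhosis 1 of 2 tested fell. Of all genes, 35.5% and 35.3% were higher at the first 2 stages, and 24.7% were lower in cirrhosis. Slc7a3 passed the filter on low counts only through the groups in which it was high. Slc7a1, the widely expressed carrier of arginine, lysine and ornithine, ranged from 98.3 to 399.7 CPM (median 168) in healthy LSECs. Acute libraries held 461, 528, 553, 592 and 775 CPM, and fibrosis libraries 441, 483, 553, 586 and 621 CPM. Cirrhosis libraries lay at 133 to 265 CPM (median 209.7). All acute and fibrosis libraries exceeded all healthy ones, of which 1, replicate 3, stood above the rest, and the cirrhotic range lay inside the healthy range. Slc7a1 rose 3.32-fold after acute injury (log2 fold change 1.73 ± 0.307 SE, adjusted p = 0.000244) and 3.15-fold in fibrosis (log2 fold change 1.66 ± 0.297 SE, adjusted p = 0.000303), and was 2.65-fold lower in cirrhosis than in fibrosis (adjusted p = 8.65e-06).

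Slc7a3, a cationic carrier best known from neurons, was close to absent in healthy LSECs at 0.0778 to 0.239 CPM, which is at most 7 counts a library. It reached 3.73, 5.01, 5.53, 6.09 and 8.69 CPM after acute injury and 3.07, 3.5, 4.62, 4.68 and 4.69 CPM in fibrosis, and returned to 0.0397 to 0.204 CPM in cirrhosis. None of the 10 acute and fibrosis libraries overlapped with any healthy or cirrhotic one. Its rise was 41.8-fold after acute injury (log2 fold change 5.38 ± 0.384 SE, adjusted p = 1.22e-07) and 31-fold in fibrosis (log2 fold change 4.95 ± 0.312 SE, adjusted p = 5.95e-08), though fold changes against so few counts are imprecise.

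Slc7a2, the carrier whose splice forms serve liver and activated macrophages, behaved otherwise. It was at 23.2 to 47.1 CPM (median 30.3) in healthy LSECs, 26.4, 29.8, 33.1, 38.6 and 46.4 CPM in acute injury, 27.5, 48.3, 51.1, 60.2 and 130.1 CPM in fibrosis and 8.4 to 34.3 CPM (median 16.5) in cirrhosis. Groups overlapped in every CCl4 comparison, and 1 fibrosis library, replicate 15, was far above the others. Slc7a2 rose 1.87-fold in fibrosis (log2 fold change 0.90 ± 0.338 SE, adjusted p = 0.0283) and fell 1.96-fold in cirrhosis (log2 fold change -0.97 ± 0.304 SE, adjusted p = 0.015). The fibrosis call was lost in 5 of 11 fits that left out 1 library, with healthy replicates 1, 2 or 3 or fibrosis replicates 15 or 16 left out, and the cirrhosis call was lost under library-size scaling.

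Of the 7 Slc1 genes, 3 were tested in acute injury and 4 in fibrosis, and these rose, while 2 of 5 tested rose in cirrhosis. Among all genes 35.5%, 35.3% and 27.1% were higher. Slc1a1, Slc1a3 and Slc1a7 passed the filter on low counts only through the groups in which they were high. Slc1a4, which exchanges alanine, serine and cysteine, was at 18.6 to 51.9 CPM (median 38.2) in healthy LSECs. After acute injury it was at 134, 139.9, 141, 164 and 167 CPM, and in fibrosis at 116, 127, 134, 159.9 and 162 CPM. In cirrhosis it was back at 21.4 to 40.3 CPM (median 30.2). The lowest acute or fibrosis library was above the highest of the 12 healthy and cirrhotic libraries. Slc1a4 rose 4.46-fold after acute injury (log2 fold change 2.16 ± 0.267 SE, adjusted p = 1.3e-05), rose 4.25-fold in fibrosis (log2 fold change 2.09 ± 0.27 SE, adjusted p = 2.26e-05) and fell 4.59-fold from fibrosis to cirrhosis (log2 fold change -2.20 ± 0.144 SE, adjusted p = 4.39e-08).

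Slc1a5, the glutamine exchanger known for feeding proliferating cells, ranged from 86.4 to 332 CPM (median 155) in healthy LSECs. Acute libraries held 508, 554, 579, 588 and 603 CPM and fibrosis libraries 362, 421, 431, 439.7 and 446 CPM, with 52.7 to 204 CPM (median 132) in cirrhosis. Every acute library was above every fibrosis library, and all 10 were above the healthy ones. Slc1a5 rose 3.93-fold and 2.98-fold (log2 fold change 1.97 ± 0.299 SE, adjusted p = 6.88e-05, and log2 fold change 1.57 ± 0.298 SE, adjusted p = 0.000453). Fibrosis differed from acute injury by a log2 fold change of -0.35 (adjusted p = 0.0102), which is below the fold threshold and no call. In cirrhosis its difference from healthy LSECs had a log2 fold change of -0.21 (adjusted p = 0.647), a value whose sign changed under library-size scaling.

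Slc1a1, a carrier of glutamate and cysteine, was at or near 0 in healthy LSECs, with 0 to 0.819 CPM (median 0.103). It was at 2.72, 4.21, 5.5, 5.66 and 9.66 CPM after acute injury, 3.79, 3.87, 5.68, 6.27 and 6.83 CPM in fibrosis and 0.139 to 0.644 CPM (median 0.51) in cirrhosis. Acute and fibrosis libraries lay well clear of the others, and its rises of 38.7-fold and 40.5-fold (adjusted p = 1.85e-05 and adjusted p = 8.17e-06) rest on at most 20 counts in a healthy library. In cirrhosis it was no call, but was called higher with unadjusted p, library size alone or library weights. Without cirrhosis replicate 2 or healthy replicate 1 or 3 it was also called there. Slc1a3, the glial glutamate carrier, was detected at low counts and rose 3.02-fold in fibrosis (adjusted p = 0.0264) and 2.94-fold in cirrhosis (adjusted p = 0.0251). Its level was 0.0409 to 0.439 CPM in healthy LSECs, 0.204 to 1.2 CPM in fibrosis and 0.238 to 1.15 CPM in cirrhosis. These groups overlapped, and leaving out healthy replicates 3 or 4, fibrosis replicates 15 or 16, or cirrhosis replicates 1 or 4 removed the call. Slc1a7, a retinal glutamate carrier, had 0 to 0.535 CPM in healthy LSECs and rose in cirrhosis, where it had 0.222 to 0.675 CPM (adjusted p = 0.0343), and this call was lost with edgeR and DESeq2 and in 7 of 12 such fits (cirrhosis replicates 1, 2, 3 and 6 and healthy replicates 2, 4 and 5).

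**Figure D2:**
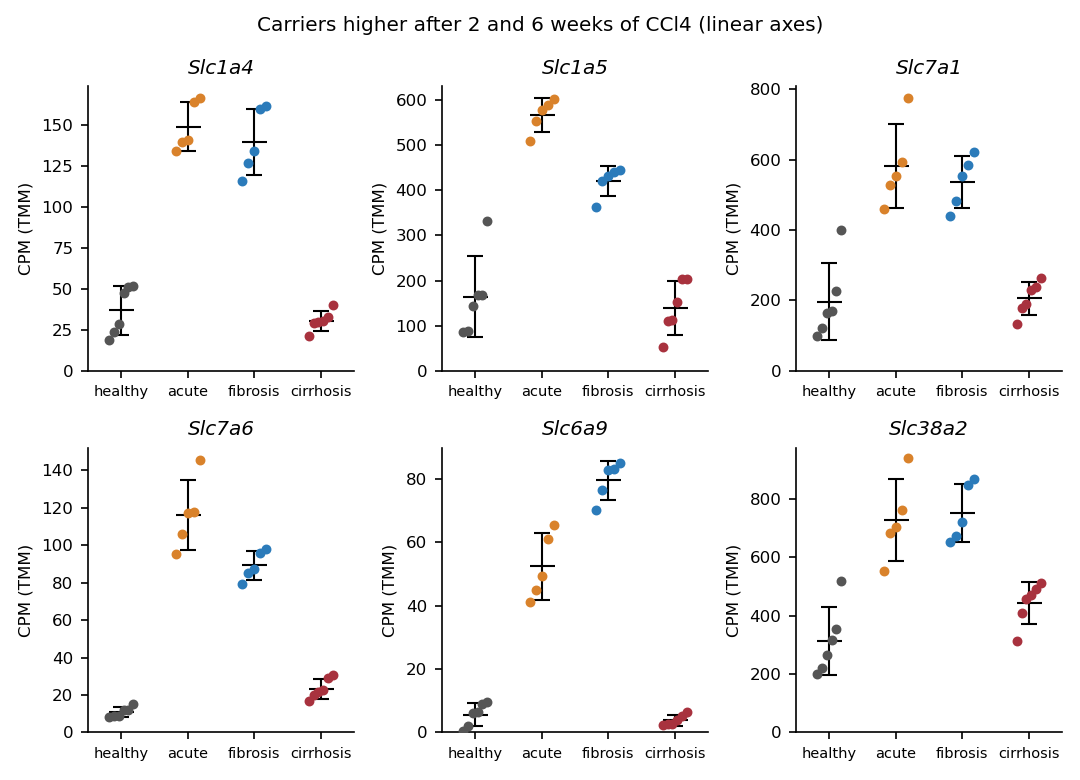
CPM on linear axes from 0 for 6 carriers in healthy, acute, fibrosis and cirrhosis libraries, with 1 point a library, a long dash for the mean and bars for 1 SD. In each panel the acute and fibrosis points lie above all healthy points, and the cirrhosis points are back near the healthy ones, except for Slc7a6, whose cirrhosis points start at 16.7 CPM, above the highest healthy point of 15.2 CPM.

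Of 6 tested Slc6 carriers, 1 rose and 4 fell after acute injury and in fibrosis alike, and 1 rose in cirrhosis. Among all genes 73.4%, 70.2% and 51.8% were called at the 3 stages. The Slc6 carrier that rose early was Slc6a9. Slc6a9, the glycine carrier GlyT1, ranged from 0.501 to 9.6 CPM (median 6.26) in healthy LSECs. It was at 41, 45.1, 49.3, 60.9 and 65.4 CPM after acute injury and 70.0, 76.6, 82.7, 83 and 85 CPM in fibrosis, and at 2.3 to 6.49 CPM (median 3.3) in cirrhosis. The fibrosis libraries were all above the acute libraries, and both stages were above every healthy and cirrhotic one. Slc6a9 rose 13.5-fold after acute injury (log2 fold change 3.75 ± 0.561 SE, adjusted p = 6.12e-05), rose 21.2-fold in fibrosis (log2 fold change 4.40 ± 0.551 SE, adjusted p = 1.71e-05) and fell 22-fold from fibrosis to cirrhosis (log2 fold change -4.46 ± 0.207 SE, adjusted p = 2.64e-09). Healthy replicate 5 was the lowest, and without it the log2 fold changes were 3.15 and 3.81 in acute injury and fibrosis.

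Of 9 tested Slc38 carriers 2 rose and 4 fell after acute injury and in fibrosis, and of 8 tested in cirrhosis 1 rose and 2 fell. The shares of all genes called were 73.4%, 70.2% and 51.8%. Slc38a8 passed the filter on low counts only through the groups in which it was high. Slc38a2, the system A carrier of alanine and glutamine that amino acid shortage is known to induce, was at 199 to 521 CPM (median 289.8) in healthy LSECs. Acute libraries held 553, 683, 706, 761 and 939.9 CPM and fibrosis libraries 652, 672, 723, 848 and 869 CPM. In cirrhosis the level was 315 to 514 CPM (median 463). Acute and fibrosis libraries all exceeded the healthy ones, with a narrow gap between the highest healthy library, replicate 5, and the lowest acute one. Slc38a2 rose 2.48-fold (log2 fold change 1.31 ± 0.237 SE, adjusted p = 0.000275) and 2.64-fold (log2 fold change 1.40 ± 0.221 SE, adjusted p = 0.000109), and in cirrhosis its difference of 1.49-fold (adjusted p = 0.0332) stayed below the fold threshold. It was called higher there with DESeq2 size factors, library size alone or library weights. Without cirrhosis replicate 2 or healthy replicate 3, 5 or 6 it was also called. Slc38a8, a little-studied glutamine carrier, rose 2.2-fold and 3.5-fold (adjusted p = 0.0122 and adjusted p = 0.000208) at levels under 1 CPM. Slc38a1, the close relative of Slc38a2, was not called against healthy LSECs at any stage, with 4.9 to 29.3 CPM (median 10.7) in healthy LSECs and log2 fold changes of -0.58, -0.19 and 0.54.

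Promoters of 44 of the 59 members were found by symbol in the RefSeq table of the rat assembly GRCr8, a later build than the Rnor_6.0 to which the reads were mapped. The letters TGATGNAA, a form of the amino acid response element to which ATF4 and C/EBP proteins are known to bind, were searched for in the 250 bases before each start, on both strands. They occur in 3.4% of all 33469 promoters and in 3 of the 44 members (6.82%). These 3 are printed because 2 of them, Slc1a4 and Slc7a1, are among the carriers that rose together, while Slc38a1 was not called. Each is given 5′ to 3′ on the strand of its gene, with the match in capitals.
Slc1a4, chr14:98761765-98761812, minus strand, with the match on the opposite strand 235 to 228 bases before the start: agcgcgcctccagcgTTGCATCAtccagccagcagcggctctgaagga
Slc7a1, chr12:11664433-11664487, plus strand, with the match 30 to 23 bases before the start: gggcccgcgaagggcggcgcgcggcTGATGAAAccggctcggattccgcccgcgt
Slc38a1, chr7:129681511-129681568, minus strand, with the match 142 to 135 bases before the start: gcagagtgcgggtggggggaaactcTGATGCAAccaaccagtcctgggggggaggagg
A match describes these letters only, and of the other carriers that rose at both of these stages, Slc7a6, Slc6a9, Slc38a2 and Slc38a8 had no match in this window. Slc1a1, Slc1a5 and Slc7a3 had no entry in the table. CACGTG, an E-box, occurs in 7 of the 44 (15.9%) and in 5.59% of all promoters, TGACNNNGC, the core of the antioxidant response element, in 9 (20.5%) and 10.1%, and TGACTCA, an AP-1 site that can overlap with it, as in Slc3a1, in 4 (9.09%) and 4.05%.

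Of 7 tested heavy chains and exchangers that pair with them, 1 rose and 2 fell after acute injury and in fibrosis, and 1 rose and 4 fell in cirrhosis. At these stages 73.4%, 70.2% and 51.8% of all genes were called, with 24.7% lower in cirrhosis. Slc3a2, the heavy chain also known as CD98 or 4F2hc, was at 445 to 889 CPM (median 813) in healthy LSECs. Acute libraries held 615, 698, 817, 894 and 1084 CPM and fibrosis libraries 745, 762, 875, 891 and 901 CPM, and neither stage was called (0.15 and 0.23 on the log2 scale, adjusted p = 0.519 and adjusted p = 0.249). Cirrhosis libraries lay at 367 to 419 CPM (median 376), all below the lowest healthy library, replicate 6. Slc3a2 fell 1.94-fold in cirrhosis (log2 fold change -0.96 ± 0.176 SE, adjusted p = 0.000748) and was 2.19-fold lower than in fibrosis (adjusted p = 5.12e-08).

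Slc7a5 (LAT1), the partner of Slc3a2 that brings in leucine and aromatic amino acids, was at 189 to 472 CPM (median 354) in healthy LSECs, 241, 242, 273, 289.9 and 298 CPM in acute injury, 242, 246, 259, 307 and 325 CPM in fibrosis and 150.1 to 259 CPM (median 180.5) in cirrhosis. The cirrhotic libraries overlapped with the healthy ones through healthy replicate 6, the lowest healthy library. Slc7a5 fell 1.79-fold in cirrhosis (log2 fold change -0.84 ± 0.214 SE, adjusted p = 0.00517), a call that was lost under library-size scaling, and the log2 fold changes after acute injury and in fibrosis, -0.29 and -0.22, were no calls. Slc7a8 (LAT2), the neutral amino acid partner of Slc3a2, had group means of 24.4 ± 6.59 CPM (SD, n = 6), 28.2 ± 5.62 CPM (n = 5), 25.7 ± 5.83 CPM (n = 5) and 26.6 ± 9.69 CPM (n = 6) from healthy to cirrhosis. Its groups overlapped throughout and no CCl4 comparison called it, except acute injury under library size alone.

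Slc7a6 and Slc7a7 are the pair of exchangers, y+LAT2 and y+LAT1, that send cationic amino acids out in return for neutral ones and sodium. They moved in opposite directions at each stage. Slc7a6 was at 8.23 to 15.2 CPM (median 10.3) in healthy LSECs, 95.5, 106, 117, 118 and 145 CPM in acute injury, 79.4, 85.4, 87.5, 96 and 97.9 CPM in fibrosis and 16.7 to 30.5 CPM (median 22) in cirrhosis. No diseased library overlapped with the healthy ones. Slc7a6 was the only member called higher at all 3 stages, by 11.2-fold (log2 fold change 3.48 ± 0.186 SE, adjusted p = 1.28e-08), 8.84-fold (log2 fold change 3.14 ± 0.162 SE, adjusted p = 1.29e-08) and 2.18-fold (log2 fold change 1.13 ± 0.193 SE, adjusted p = 0.000493).

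Slc7a7, known for its high expression in macrophages and kidney, was at 32.4 to 63.6 CPM (median 55.6) in healthy LSECs, 2.64, 3.06, 3.3, 3.53 and 4.24 CPM in acute injury, 3.73, 4.05, 4.46, 5.05 and 5.16 CPM in fibrosis and 19.1 to 28.2 CPM (median 22.3) in cirrhosis. Here too no diseased library overlapped with the healthy ones, in the lower direction. Slc7a7 fell 14.9-fold after acute injury (log2 fold change -3.90 ± 0.239 SE, adjusted p = 3.58e-08), 10.9-fold in fibrosis (log2 fold change -3.44 ± 0.219 SE, adjusted p = 6.48e-08) and 2.25-fold in cirrhosis (log2 fold change -1.17 ± 0.186 SE, adjusted p = 0.000312). Macrophage markers, given above, fell in 10 and 11 of 11 tested genes in acute injury and fibrosis, and in 0 of 12 in cirrhosis, where 1 rose.

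Slc7a9, the exchanger that with Slc3a1 recovers cystine and cationic amino acids in kidney tubules, was at 1.01 to 2.42 CPM (median 1.91) in healthy LSECs. It had 0 to 4 counts a library in acute injury and at most 2 counts in fibrosis, so no fold is given, and 0.389 to 0.655 CPM (median 0.496) in cirrhosis. It was called lower at all 3 stages (adjusted p = 5.58e-06, adjusted p = 3.64e-07 and adjusted p = 0.000396) with no overlap. In the tests of acute injury and fibrosis it passed the filter on low counts only through the healthy libraries. Slc3a1 itself, at 0.301 to 0.982 CPM in healthy LSECs, 0.187 to 0.602 CPM in fibrosis and 0.489 to 0.966 CPM in cirrhosis, was not called against healthy LSECs at any stage.

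All 3 facilitative Slc43 carriers were lower in cirrhosis and 2 of them at every stage. Among all genes 37.9%, 34.9% and 24.7% were called lower in acute injury, fibrosis and cirrhosis. Slc43a2 (LAT4), which carries branched-chain amino acids, phenylalanine and methionine, was at 238 to 351 CPM (median 281) in healthy LSECs. It was at 27.3, 27.6, 28.2, 30.3 and 42 CPM after acute injury, 22.1, 22.3, 25.8, 29.3 and 37.5 CPM in fibrosis and 118 to 166 CPM (median 129.9) in cirrhosis. Healthy libraries were highest, cirrhotic libraries intermediate and the others lowest, with no overlap between these 3 bands. Slc43a2 fell 8.97-fold (log2 fold change -3.16 ± 0.16 SE, adjusted p = 8.36e-09), 10.04-fold (log2 fold change -3.33 ± 0.167 SE, adjusted p = 1.07e-08) and 2.1-fold (log2 fold change -1.07 ± 0.135 SE, adjusted p = 0.000118).

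Slc43a3, the purine nucleobase carrier of this family, showed the same order of groups. It was at 265 to 423 CPM (median 314) in healthy LSECs, 26.9, 36.6, 41.7, 53.7 and 55.7 CPM in acute injury, 22.5, 35.3, 40.3, 41.3 and 44.4 CPM in fibrosis and 159.8 to 242 CPM (median 167) in cirrhosis, again in 3 bands that did not overlap. It fell 7.51-fold (log2 fold change -2.91 ± 0.2 SE, adjusted p = 9.17e-08), 8.49-fold (log2 fold change -3.09 ± 0.184 SE, adjusted p = 3.79e-08) and 1.77-fold (log2 fold change -0.83 ± 0.147 SE, adjusted p = 0.000614), and the cirrhosis call was lost under library-size scaling. Slc43a1 (LAT3), at 1.25 to 8.09 CPM (median 4.97) in healthy LSECs and 1.21 to 2.67 CPM (median 1.68) in cirrhosis, fell 2.14-fold in cirrhosis only (log2 fold change -1.10 ± 0.425 SE, adjusted p = 0.0399). These groups overlapped, and library-size scaling and 8 of 12 fits that left out 1 library lost the call (cirrhosis replicates 3 to 6 and healthy replicates 1, 2, 4 and 6).

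**Figure D3:**
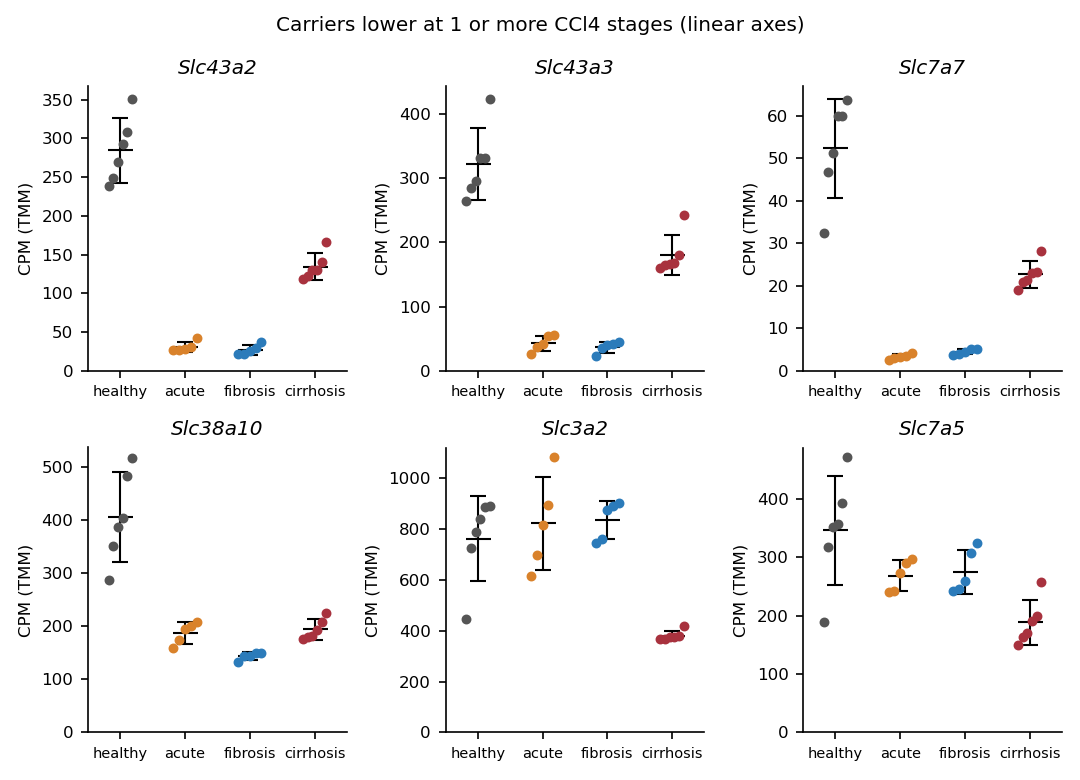
CPM on linear axes from 0 for 6 carriers called lower at 1 or more CCl4 stages, with 1 point a library, a long dash for the mean and bars for 1 SD. Slc43a2, Slc43a3 and Slc7a7 are lowest in acute and fibrosis libraries and intermediate in cirrhosis, Slc38a10 is lower at all 3 stages, and Slc3a2 and Slc7a5 are called lower in cirrhosis only.

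Among the remaining Slc38 carriers, Slc38a10, a widely expressed carrier of glutamine, glutamate and other amino acids, was lower at every stage. It was at 288 to 518 CPM (median 397) in healthy LSECs, 158, 175, 196, 201 and 209 CPM in acute injury, 133, 144, 145, 149 and 149.6 CPM in fibrosis and 177 to 226 CPM (median 187) in cirrhosis, and no diseased library reached the lowest healthy one. The falls were 2.08-fold (log2 fold change -1.06 ± 0.16 SE, adjusted p = 6.79e-05), 2.64-fold (log2 fold change -1.40 ± 0.146 SE, adjusted p = 3.75e-06) and 2.05-fold (log2 fold change -1.03 ± 0.157 SE, adjusted p = 0.000246).

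Slc38a6, a little-characterised relative, was called at all 3 stages and changed direction between them. It was at 5.95 to 13.5 CPM (median 9.32) in healthy LSECs, 3.19, 4.17, 4.47, 4.79 and 5.2 CPM in acute injury, 2.62, 3.15, 3.66, 4.42 and 4.45 CPM in fibrosis and 11.7 to 19 CPM (median 17) in cirrhosis. Acute and fibrosis libraries lay below every healthy library, and the cirrhotic libraries overlapped with the upper healthy ones. Slc38a6 fell 2.08-fold (log2 fold change -1.05 ± 0.272 SE, adjusted p = 0.00351) and 2.44-fold (log2 fold change -1.29 ± 0.285 SE, adjusted p = 0.00136), and rose 1.78-fold in cirrhosis (log2 fold change 0.83 ± 0.22 SE, adjusted p = 0.00632). The acute call was lost under library-size scaling.

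Among lysosomal and proton-coupled carriers few calls were made, with none of 2 tested Slc36 members called after acute injury or in fibrosis and 1 of 3 in cirrhosis. Of all genes, 73.4%, 70.2% and 51.8% were called at these stages. Slc38a9, the lysosomal arginine sensor that feeds the mTORC1 growth pathway, had 3.52 to 5.65 CPM (median 4.01) in healthy LSECs, 2.08, 4.41, 4.86, 5.83 and 7.67 CPM in acute injury, 4.3, 4.37, 4.85, 5.22 and 5.48 CPM in fibrosis and 5.36 to 7.41 CPM (median 5.69) in cirrhosis, and no comparison called it. Slc36a1, the proton-coupled exporter of small amino acids from lysosomes, had 11 to 16.6 CPM (median 13.4) in healthy LSECs and log2 fold changes of 0.23, -0.10 and -0.29, none of them called. Under library size alone Slc38a9 was called higher in fibrosis and cirrhosis, and Slc36a1 in acute injury. Slc36a4, a high-affinity proline and tryptophan carrier, had 6.06 to 14.8 CPM (median 7.75) in healthy LSECs, 6.5, 8.11, 8.53, 11 and 13.5 CPM in acute injury, 7.21, 8.43, 9.47, 9.58 and 9.71 CPM in fibrosis and 14.6 to 21.2 CPM (median 16.6) in cirrhosis. It rose in cirrhosis alone, by 1.9-fold (log2 fold change 0.93 ± 0.213 SE, adjusted p = 0.00294). The lowest cirrhotic library, at 14.6 CPM, and the highest healthy library, replicate 5 at 14.8 CPM, met at this scaling, and did not overlap with the 2 groups scaled alone. Slc38a7, a lysosomal glutamine exporter, was at 26.1 to 66.4 CPM (median 46.5) in healthy LSECs and 17.4 to 27.1 CPM (median 22) in cirrhosis, with groups that overlapped through healthy replicate 6. It fell 2.08-fold in cirrhosis (log2 fold change -1.06 ± 0.221 SE, adjusted p = 0.00168).

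Slc6a8, the creatine carrier, was at 71.4 to 154 CPM (median 92.1) in healthy LSECs, 23.7, 33.6, 36.5, 40.8 and 47.1 CPM in acute injury, 30.1, 30.4, 31.4, 32.2 and 35.7 CPM in fibrosis and 63.6 to 85.9 CPM (median 69.2) in cirrhosis. Acute and fibrosis libraries were all below the others, and it fell 2.8-fold (adjusted p = 0.000137) and 3.04-fold (adjusted p = 2.65e-05). In cirrhosis it was no call (-0.50 on the log2 scale, below the fold threshold). Slc6a6, the taurine carrier, had 18.6 to 42.5 CPM (median 25.8) in healthy LSECs and was not called in acute injury or fibrosis. In cirrhosis it lay at 23.3 to 54.6 CPM (median 41.8) and rose 1.52-fold (log2 fold change 0.60 ± 0.242 SE, adjusted p = 0.0463), but the groups overlapped, and the call was lost in 10 of 12 fits that left out 1 library, all but those without cirrhosis replicate 3 or healthy replicate 1. Slc6a3, the dopamine carrier, fell 4.64-fold and 5.67-fold (adjusted p = 0.00268 and adjusted p = 0.00182) from 0.342 to 2 CPM in healthy LSECs. It had 5 to 9 counts a library in acute injury and 3 to 8 in fibrosis. In these tests it passed the filter on low counts only through the healthy libraries.

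A last group of carriers belongs to hepatocytes in normal liver: Slc38a3, the system N glutamine carrier, Slc38a4, the system A carrier of hepatocytes, and Slc6a13, a carrier of GABA and taurine. Slc38a3 was at 3.97 to 194 CPM (median 109) in healthy LSECs, 0.5, 0.599, 0.852, 0.98 and 2.3 CPM in acute injury, 5.94, 6.11, 8.71, 10.6 and 16.7 CPM in fibrosis and 11 to 54.5 CPM (median 27.9) in cirrhosis. Slc38a4 was at 2.61 to 79 CPM (median 55.1), 0.333, 0.572, 0.654, 0.695 and 3.62 CPM, 2.67, 4.96, 5.22, 5.89 and 9.9 CPM and 16.1 to 37.9 CPM (median 29.5) in the same order. Slc6a13 was at 1.32 to 51.3 CPM (median 22.7), 0.0272, 0.0631, 0.0833, 0.184 and 0.218 CPM, 0.287, 0.53, 1.5, 1.57 and 2.47 CPM and 2.13 to 10.3 CPM (median 6.63). Acute libraries held only 1 to 8 counts of Slc6a13, so fold changes against them are imprecise. In comparisons with acute injury it passed the filter on low counts only through the other group. The lowest healthy library of all 3 was replicate 5, and the second lowest replicate 3, which also had the lowest sums of hepatocyte markers (1393 and 3863 CPM).

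They fell after acute injury by 60.0-fold (log2 fold change -5.91 ± 1.47 SE, adjusted p = 0.0027), 32.1-fold (log2 fold change -5.01 ± 1.32 SE, adjusted p = 0.00404) and 126-fold (log2 fold change -6.98 ± 1.65 SE, adjusted p = 0.0019). Without healthy replicate 5 these log2 fold changes were -6.69, -5.69 and -7.68. In fibrosis they fell 6.08-fold, 4.94-fold and 13.5-fold (adjusted p = 0.0359, adjusted p = 0.0479 and adjusted p = 0.0165), with log2 fold changes of -2.60, -2.30 and -3.75, or -3.38, -2.99 and -4.44 without that replicate. The fibrosis calls of Slc38a3 and Slc38a4 were lost under library-size scaling and in 8 and 9 of 11 fits that left out 1 library. For both, these were the fits without healthy replicate 1, 2, 4 or 6 or fibrosis replicate 12, 13, 15 or 17, and for Slc38a4 also the one without fibrosis replicate 16. Slc6a12, the betaine and GABA carrier, fell 7-fold and 4.04-fold (adjusted p = 0.00145 and adjusted p = 0.0154). None of these 4 genes was called in cirrhosis by limma-voom in the main fit. EdgeR and DESeq2 called Slc38a3, Slc6a12 and Slc6a13 lower there. So did limma-voom with library weights or without healthy replicate 5.

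**Figure D4:**
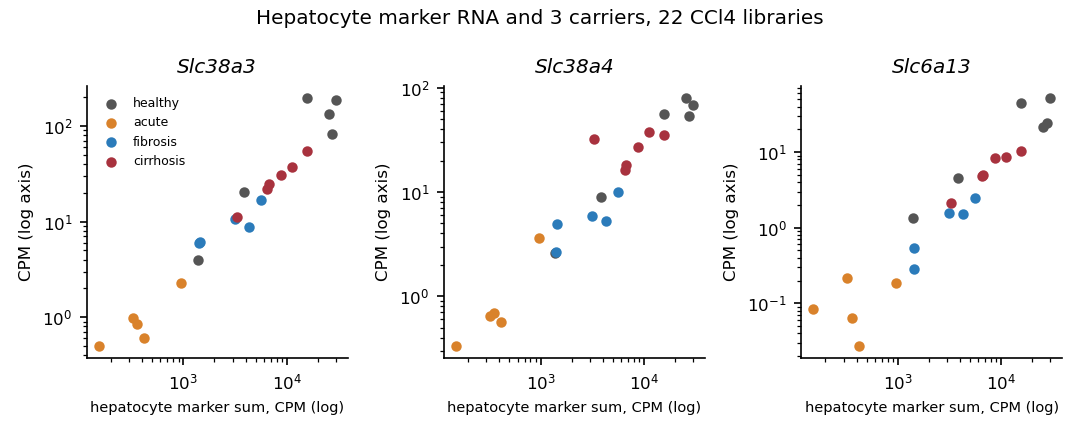
CPM of Slc38a3, Slc38a4 and Slc6a13 against the summed CPM of 12 hepatocyte markers, both on log axes, with 1 point for each of the 22 CCl4 libraries coloured by stage. In all 3 panels libraries with more hepatocyte RNA tend to hold more of the carrier, from acute libraries at the lower left to 4 healthy libraries at the upper right, while healthy replicate 5 (1393 CPM of markers) lies beside the fibrosis libraries.

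Fibrosis and acute injury were then compared directly. Of 32 tested members 4 were called, beside 11% of all genes (10.2% higher and 0.732% lower in fibrosis), and 4 of 4 were higher in fibrosis. They were Slc6a9 (log2 fold change 0.70 ± 0.13 SE, adjusted p = 0.00722) and the hepatocyte carriers Slc38a3 (log2 fold change 3.35 ± 0.48 SE, adjusted p = 0.00363), Slc38a4 (log2 fold change 2.73 ± 0.571 SE, adjusted p = 0.0106) and Slc6a13 (log2 fold change 3.27 ± 0.789 SE, adjusted p = 0.0178). Hepatocyte markers were called higher in 11 of 12 genes in the same comparison. Leaving out acute replicate 1 removed the call of Slc6a13, and without acute replicate 4 the log2 fold change of Slc38a4 was 3.33. The groups did not overlap for 5 members, beside 14% of all genes.

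Between fibrosis and cirrhosis most members moved. Of 36 tested members 29 were called, beside 63.8% of all genes (34.3% higher and 29.5% lower), 16 of them higher and 13 lower in cirrhosis, and the groups did not overlap for 23 members, beside 63.3% of all genes. The largest falls were those of Slc7a3 (-5.58 on the log2 scale), Slc6a9 (-4.46), Slc1a1 (-3.63) and Slc1a4 (-2.20). These 4 had risen against healthy LSECs in a comparison that used the same fibrosis libraries. Among the rises were Slc7a7 (2.33), Slc43a2 (2.32), Slc43a3 (2.32), Slc38a6 (2.17) and the hepatocyte carrier Slc38a4 (2.32), each with an adjusted p-value from limma-voom that passed. Slc38a1, not called against healthy LSECs, rose 1.73-fold in this comparison (log2 fold change 0.79 ± 0.148 SE, adjusted p = 0.000359). Slc3a1 (adjusted p = 0.0492), Slc43a1 (adjusted p = 0.0408), Slc6a6 (adjusted p = 0.0226) and Slc6a12 (adjusted p = 0.0296) lost their calls in 8, 7, 5 and 3 of 11 fits that left out 1 library. Slc3a1 and Slc6a6 also lost them under library-size scaling. The call of Slc6a12 was lost without cirrhosis replicate 5 or fibrosis replicates 13 or 17, and that of Slc6a6 without cirrhosis replicates 4, 5 or 6 or fibrosis replicates 12 or 13. Slc3a1 lost it without cirrhosis replicates 1, 2, 3 or 6 or fibrosis replicates 13, 15, 16 or 17, and Slc43a1 without cirrhosis replicates 3, 4, 5 or 6 or fibrosis replicates 15, 16 or 17.

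Members with a gap between all diseased and all healthy libraries numbered 20 in acute injury, beside 60.4% of all genes, 17 in fibrosis, beside 59%, and 8 in cirrhosis, beside 27.2%. The 31 members tested in all 3 comparisons with healthy LSECs were sorted by their calls. The share of all genes with each pattern was not counted, and the 3 comparisons use the same healthy libraries. Higher in acute injury and fibrosis but not called in cirrhosis were 6, lower in both and not called in cirrhosis another 6, and lower at all 3 stages 5, which were Slc7a7, Slc7a9, Slc38a10, Slc43a2 and Slc43a3. In cirrhosis alone 4 members were called lower, Slc3a2, Slc7a5, Slc38a7 and Slc43a1, and 2 higher, Slc6a6 and Slc36a4. Another 5 were called at no stage, and Slc7a2, Slc7a6 and Slc38a6 each had a pattern of its own.

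In the TAA experiment, 14 of 31 tested members were called between the group labelled TAA control and the group labelled control, beside 27.6% of all 14376 genes (12.7% higher and 14.9% lower). In the group labelled TAA control 5 members were higher and 9 lower, and the groups did not overlap for 14 members, beside 35.4% of all genes. Libraries 14 and 15 of that group were more alike than any other pair (chi-square of 3.05 per degree of freedom over genes, and at least 25.2 in every other pair of a group). The difference between them was still larger than counting error. They were kept as 2 samples, as labelled, and whether they came from separate rats was not tested. Without library 14 or 15 the count was 15 or 14.

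Of the 9 lower members, 5 had risen in acute injury and fibrosis in the CCl4 model, namely Slc7a1, Slc1a4, Slc1a5, Slc7a6 and Slc6a9. Among all genes 35.5% and 35.3% were higher at these CCl4 stages. How many of all genes lower in the group labelled TAA control had also risen there was not counted. Slc7a1 was at 154, 186, 232, 325 and 381 CPM in the group labelled control and 32.3, 36.2, 52.4, 66.6 and 67.2 CPM in the group labelled TAA control, without overlap, a 4.96-fold difference (log2 fold change -2.31 ± 0.284 SE, adjusted p = 0.00013). Slc1a5 was at 106, 153, 169, 197 and 231 CPM and 62.8, 72, 82.7, 88.5 and 90.8 CPM, also without overlap and 2.11-fold lower (log2 fold change -1.08 ± 0.187 SE, adjusted p = 0.000895). Slc7a6 was at 23.9, 32.1, 32.7, 36.7 and 37.1 CPM and 8.53, 8.69, 11.1, 11.6 and 11.8 CPM, 3.15-fold lower (log2 fold change -1.66 ± 0.151 SE, adjusted p = 2.46e-05). All 3 separated the groups completely. Slc6a9, at 1.16 to 2.03 CPM and 0.234 to 0.475 CPM, was 4.68-fold lower (adjusted p = 0.000163), and Slc1a4 1.6-fold lower (adjusted p = 0.0403), with groups that overlapped and a call that 7 of 10 fits without 1 library lost (replicates 3, 4 and 5 of the group labelled control, and 10, 12, 13 and 15 of the other). Slc38a2 was not called (-0.11 on the log2 scale, adjusted p = 0.691).

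The hepatocyte carriers were lower in the same group, Slc38a4 by 7.64-fold (log2 fold change -2.93 ± 0.564 SE, adjusted p = 0.00163), Slc38a3 by 4.29-fold (log2 fold change -2.10 ± 0.419 SE, adjusted p = 0.00199) and Slc6a13 by 2.91-fold (adjusted p = 0.00399). Hepatocyte markers were called lower there in 9 of 12 genes, with sums of 696 to 1558 CPM against 2479 to 6198 CPM. Stellate and fibroblast markers were lower in 8 of 11 genes and cholangiocyte markers in 6 of 7, while 13 of 15 immediate-early genes, 3 LSEC, 2 macrophage and 3 lymphocyte markers were higher and the 1 neutrophil marker tested gave no call. Slc6a6 was also lower, by 1.88-fold (adjusted p = 0.0105), with groups that overlapped.

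Higher in the group labelled TAA control were Slc7a2, Slc7a7, Slc7a8, Slc7a9 and Slc43a3. Slc7a2 was at 5.3, 5.71, 7.07, 8.31 and 10.1 CPM in the group labelled control and 13.6, 17.6, 26, 29.1 and 40.2 CPM in the other, 3.27-fold higher (log2 fold change 1.71 ± 0.325 SE, adjusted p = 0.00154). Slc7a8, which no CCl4 comparison called in the main fit, was at 5.46, 7.08, 8.05, 8.8 and 10.9 CPM and 17.9, 18.9, 19, 20.9 and 21.4 CPM, 2.5-fold higher (log2 fold change 1.32 ± 0.146 SE, adjusted p = 7.12e-05). Slc43a3 was at 80.3, 87.6, 107, 115 and 137 CPM and 193, 208, 209.6, 241 and 333 CPM, 2.24-fold higher (log2 fold change 1.16 ± 0.174 SE, adjusted p = 0.000385). For each of these the groups did not overlap. Slc7a7 was 1.66-fold higher (adjusted p = 0.000319) and Slc7a9, with 1 to 11 counts a library in the group labelled control and 25 to 47 in the other, 7.58-fold higher (adjusted p = 0.00205). Slc7a9 passed the filter on low counts only through the group labelled TAA control. Slc43a2, Slc38a10, Slc38a1, Slc38a9, Slc36a1 and Slc3a2 were not called, the last with a log2 fold change of 0.28 (adjusted p = 0.00865), below the fold threshold.

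**Figure D5:**
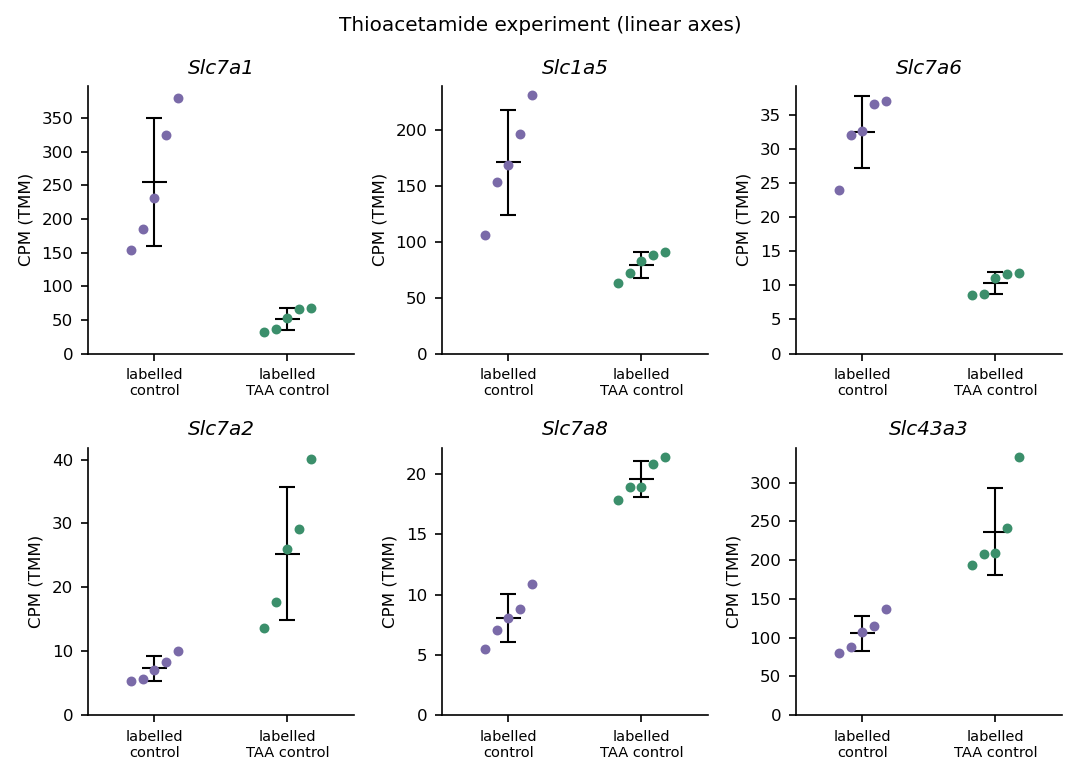
CPM on linear axes from 0 for 6 carriers in the 2 groups of the TAA experiment, named as in the labels, with 1 point a library, a long dash for the mean and bars for 1 SD. The top row (Slc7a1, Slc1a5, Slc7a6) is lower and the bottom row (Slc7a2, Slc7a8, Slc43a3) higher in the group labelled TAA control, with no overlap in any panel.

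The remaining 21 members were too low to be tested in any comparison. Among them Slc7a12 and Slc7a13 had 0 counts in all 32 libraries, and Slc6a11 and Slc7a14 at most 1. The highest were Slc7a4, an orphan relative of the cationic carriers, with up to 53 counts (2.06 CPM), and Slc38a5, a glutamine carrier, with up to 50 counts (0.993 CPM), in a single library. Slc6a16 reached 32 counts, and Slc36a3, Slc1a6 and Slc1a2 at most 20, 18 and 17. Slc6a7, Slc7a10 and Slc6a19 stayed at or under 14, 12 and 11 counts, and Slc6a2, Slc6a5, Slc6a14, Slc6a15, Slc6a18, Slc7a15 and Slc38a11 at or under 6. Counts this low allow no comparison at this depth. Slc6a17, a brain carrier tested only between fibrosis and acute injury, had 4 to 14 counts in each of the 10 libraries of those stages and at most 2 in every other library, and Slc36a2 and Slc6a4, each tested in 1 comparison, were not called.

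Other genes of amino acid metabolism give the setting. The amino acid response list holds 20 genes, which are regulators and targets of the ATF4 pathway. Of these, 11 rose and 4 fell after acute injury, 12 rose and 3 fell in fibrosis, and 2 rose and 6 fell in cirrhosis, where 73.4%, 70.2% and 51.8% of all genes were called, and the median log2 fold changes of the list were 1.46, 1.22 and -0.30. The summed level of the list was 5276 to 8392 CPM in healthy libraries and 2824 to 4123 CPM after acute injury, and Atf3, which is also an immediate-early gene, went from 1730.4 to 4420.3 CPM in the former to 50.3 to 358 CPM in the latter. From fibrosis to cirrhosis 13 fell and 1 rose. Asns, which makes asparagine, changed by 4.57 on the log2 scale after acute injury. Psat1 of serine synthesis changed by 4.46 in acute injury and 4.15 in fibrosis, and Pycr1 of proline synthesis by 3.35 and 3.30, all called. Atf4 itself was not called at any stage (-0.52, -0.46 and -0.33). In the TAA experiment 2 of 19 were higher and 2 lower, Asns being -0.98 in the group labelled TAA control.

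Of 19 enzymes that make or use the carried amino acids, 6 rose and 10 fell after acute injury, 6 rose and 10 fell in fibrosis, and 0 rose and 9 fell in cirrhosis. Of all genes, 73.4%, 70.2% and 51.8% were called at these stages. Nos3, the endothelial nitric oxide synthase that uses arginine, changed by -4.93, -4.99 and -1.32 on the log2 scale, each called lower, while the arginine carrier Slc7a1 rose at the first 2 of these stages. Bcat1, which starts the breakdown of branched-chain amino acids, changed by 3.08 and 2.65, called higher in acute injury and fibrosis. Cdo1 and Ass1, both abundant in hepatocytes, fell in acute injury (-7.03 and -5.21), together with the hepatocyte markers given above.

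Of 20 genes of lysosomal amino acid sensing found in the files, 6 rose and 7 fell after acute injury, 6 rose and 8 fell in fibrosis, and 3 rose and 8 fell in cirrhosis. The shares of all genes called were 73.4%, 70.2% and 51.8%. Fnip1, a partner of folliculin, changed by 1.85, 2.37 and 1.37 on the log2 scale, and Lamtor4, a subunit of the Ragulator scaffold, by -2.30, -2.61 and -1.38, all called. Of other amino acid and peptide carriers outside the 7 families, 1 of 11 rose and 5 fell after acute injury, 1 of 12 rose and 6 fell in fibrosis, and 2 of 12 rose and 4 fell in cirrhosis. The shares of all genes called are those given above for the lysosomal genes. Slc16a10, the aromatic amino acid carrier TAT1, changed by -2.24 and -2.20 in acute injury and fibrosis, both called lower, and by 0.11 in cirrhosis, which was not called.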

How the data were processed

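LSEC RNA of 32 libraries was sequenced after poly(A) selection with a strand-specific kit. The authors' deposited tables hold expected counts per gene, estimated from reads mapped to Rnor_6.0. The submitters' processing notes name FastQC, Trim Galore, STAR, RSEM and limma, with versions not given in the sources used here. In each library 10.3% to 12.4% of the expected counts were not whole, and all were rounded to whole numbers before the fits. Groups came from the labels. Each of the 6 comparisons was fitted on its 2 groups alone with limma-voom (limma 3.58.1, edgeR 4.0.16 for TMM and filterByExpr, R 4.3.3), without covariates. Over all genes tested, calls needed a Benjamini-Hochberg adjusted p under 0.05 and a fold change above 1.5. The study's own design used unadjusted p, which was run as an alternative. Log2 CPM used a pseudocount of 0.5. P-values measure the spread between the libraries of a group. Paralogous carriers can share reads, which RSEM divides by estimate.

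Alternatives were edgeR's quasi-likelihood test, DESeq2 1.42.0, its size factors, library size alone, 2 other low-count filters (none, or at least 10 counts), 2 other thresholds, library weights, a replicate block and leaving out each library. Values per library are given for members called at all 3 CCl4 stages (up to 12), for the 3 largest rises and falls of each comparison among called members whose log2 CPM averaged 1 or more, and for a fixed set of well-known carriers. Genes outside the families come from fixed lists, at most 3 a list and comparison. Values of Slc1a7, Slc3a1, Slc6a3, Slc6a8, Slc6a12, Slc7a3, Slc38a7 and Slc38a8, as well as Atf4, Bcat1, Atf3, Reln, Spp1 and the cirrhosis values of Nos3, Fnip1, Lamtor4 and Slc16a10, were added after they were seen. The members and lists were chosen with earlier results of these data known. The scripts were tested on simulated data. Python 3.11.15, pandas 2.3.3 and matplotlib 3.10.9 served the promoter search and figures. Some items of the set and lists are not reported here.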

Additional observations from a re-analysis of the deposited data

Results flagged for a closer look

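Only the members picked by the rule for values per library were looked at. Those with enough counts gave 156 groups of 5 or 6 libraries. Of these, 12 held a library whose gap to the nearest other exceeded Dixon's critical value at 95%. Chance alone gives about 7.8. Healthy replicate 6 had 445 CPM of Slc3a2, and the other healthy libraries 724 to 889 CPM. In the same direction, acute replicate 8 had 11.4 CPM of Slc36a1 (others 15.4 to 16.6), fibrosis replicate 15 had 9.97 CPM of Slc36a1 (11.9 to 12.7) and 362 CPM of Slc1a5 (421 to 446), and cirrhosis replicate 2 had 6.55 CPM of Slc36a1 (10.6 to 13.4). Cirrhosis replicate 3 was low in Slc38a1, with 12.1 CPM (17.2 to 20.6), and replicate 10 of the group labelled TAA control in Slc38a6, with 21.6 CPM (24.9 to 26.3).

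The other 5 were high. Acute replicate 4 had 42.0 CPM of Slc43a2 (others 27.3 to 30.3) and acute replicate 8 had 38.1 CPM of Slc7a8 (24.2 to 26.7). Cirrhosis replicate 1 had 419 CPM of Slc3a2 (367 to 379) and cirrhosis replicate 5 had 242 CPM of Slc43a3 (159.8 to 180.3). Replicate 14 of the group labelled TAA control had 8.41 CPM of Slc38a9 (7.01 to 7.33).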

How the results depend on the processing

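Over 151 comparisons of single members, chosen after the data were seen, 3067 values under alternatives held 30 changes of sign, 0 of them in a called value. Between fibrosis and acute injury 4 members were called, 8 without a low-count filter (7 higher, 1 lower) and 7 without a fold-change threshold. Leaving out 1 library gave 20 to 21 called members in acute injury, 19 to 22 in fibrosis and 12 to 18 in cirrhosis against healthy LSECs, 3 to 6 between fibrosis and acute injury, 25 to 29 between cirrhosis and fibrosis, and 13 to 15 in the TAA experiment.

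The values that changed sign were log2 fold changes that had not been called. Under library size alone they were Slc7a5 in acute injury (0.12) and fibrosis (0.17), Slc36a1 in fibrosis (0.29) and cirrhosis (0.048), Slc38a1 in fibrosis (0.20), and Slc1a4 (0.17), Slc1a5 (0.13) and Slc6a9 (0.23) in cirrhosis. With library weights they were the log2 fold change of Slc3a2, acute vs healthy (-0.0399), the log2 fold change of Slc38a7, acute vs healthy (-0.0322), and that of Slc6a6 in fibrosis (-0.13). Leaving out 1 library gave ranges of -0.0501 to 0.40 for Slc38a9 and -0.0489 to 0.30 for Slc6a6 in acute injury, -0.48 to 0.0567 for Slc38a1 and -0.0859 to 0.21 for Slc6a6 in fibrosis, and -0.38 to 0.0222 for Slc1a5, -0.72 to 0.12 for Slc6a9 and -0.0672 to 0.25 for Slc7a8 in cirrhosis. The cause was not tested.

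Replicate numbers are shared by healthy and cirrhosis (6) and by healthy and acute libraries (4), but name different rats. Deviations of same-numbered libraries correlated at -0.23 to 0.29 and at 0.03 to 0.21, and 1 of 6 and 1 of 4 libraries correlated best with their own number, so the numbers were not taken to pair them. With the replicate block, Slc3a2 (-0.16) and Slc6a6 (-0.10) changed sign in acute injury, as did the log2 fold change of Slc38a7, acute vs healthy (-0.0186), Slc38a1 and Slc43a1 gained a call there, and in cirrhosis Slc6a6 lost its call and Slc6a12 gained one. Library weights removed the calls of Slc7a2 in fibrosis, Slc6a6 in cirrhosis and Slc3a1 between cirrhosis and fibrosis. With them Slc38a1 and Slc43a1 gained a call in acute injury, and Slc7a7 and Slc38a8 between fibrosis and acute injury. In cirrhosis Slc1a1, Slc38a2, Slc38a3, Slc6a12 and Slc6a13 gained one. Without a low-count filter Slc38a4 lost its call in fibrosis and Slc3a1 and Slc43a1 between cirrhosis and fibrosis. Below the low-count filter lay 21 members in all 6 comparisons, and 23 to 28 members in any single comparison.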
